A study of Mus musculus with 132 samples.

Results

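The genes described here encode the proteasome, the protease complex that degrades ubiquitin-tagged proteins in the cytoplasm and nucleus. They were taken as every row of the count table whose symbol begins with Psma, Psmb, Psmc, Psmd or Psme and a number, without Psmb8, Psmb9 and Psmb10 and without pseudogene names, which gave 42 of the 32245 genes in the table. The symbol rule also brings in genes that are not constitutive subunits, and these are kept apart below. Transcriptomes of 132 single cells from cultured mouse embryos were measured with Smart-seq2, a full-length protocol for polyadenylated RNA without molecular identifiers. All embryos came from superovulated C57BL/6 x DBA F1 females mated with males of the same F1 cross, and were flushed at embryonic day 1.5 as 2-cell embryos.

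The embryos were then cultured in KSOM medium at 5 or 10 µM of a mirVana mimic, which carried either the sequence of miR-381-3p (mimic cells) or a scrambled one as negative control (control cells). Groups were 30 control and 24 mimic cells of the 8-cell stage (embryonic day 2.5) and 39 control and 39 mimic cells of the 32-cell stage (embryonic day 3.5), from 3 to 5 embryos per group. The labels give neither the dose nor the embryo of a cell. The study's text gives 10 µM for the 8-cell and 5 µM for the 32-cell cells, so stage and dose cannot be told apart. Without an embryo for each cell, every group was treated as 1 sample, and no test was made between groups.

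The proteasome has a barrel, the 20S core, and a cap, the 19S regulatory particle. The barrel is a stack of outer rings of alpha subunits (Psma genes), which gate entry, and inner rings of beta subunits (Psmb genes), of which Psmb5, Psmb6 and Psmb7 carry the protease activities. The cap has a base with a ring of ATPases (Psmc genes) that unfold substrates, larger scaffold and receptor subunits (Psmd1, Psmd2, Psmd4), and a lid whose Psmd14 removes ubiquitin. Psmd5, Psmd9 and Psmd10 are chaperones of base assembly and leave the finished complex. Psme1 and Psme2 together form an alternative activator of the barrel that interferon induces, Psme3 forms a related nuclear one, and Psme4 encodes a large activator known from sperm development. In preimplantation embryos the proteasome is known to clear maternal proteins.

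Of the 42 genes, 31 are constitutive subunits of the core or the cap, and each of these had a count in all 132 cells. The 42 genes lie on 16 chromosomes, 10 of them on chromosome 11 and 6 on chromosome 14, and 1, Psmd10, is on the X chromosome. Of the 42 genes, 10 share exon bases with another annotated gene. The largest shares are 21.2% for Psmc3ip (with Mlx), 11.8% for Psmb7 (with Nek6), 10.1% for Psmd13 (with Sirt3) and 8.25% for Psmc3 (with Slc39a13). The protocol keeps no strand, so reads in those bases cannot be assigned to 1 gene, and the values of these 4 genes are uncertain to that extent.

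The sequence of the mimicked microRNA comes first, because the mimic was designed to act through it. In the following lines, the microRNA is from RefSeq (GRCm38.p6) and the 3' UTR sites are from GENCODE (GRCm38). Capitals mark the seed (bases 2 to 8), and in the 3' UTR sites a match of 7 bases. CTTGTAT pairs with bases 2 to 8, and TTGTATA pairs with bases 2 to 7 and ends in an A opposite base 1. All sites of 7 bases found in members above 20 CPM (counts per 1000000 counts of a group or cell, without mitochondrial genes) are shown.
mmu-miR-381-3p (chr12:109726870-109726891, plus strand): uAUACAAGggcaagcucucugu
Psma4, 1 site in a 3' UTR of 241 bases: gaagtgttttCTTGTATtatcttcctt
Psma2, 1 site in 2171 bases: cgtgtatttaTTGTATAtctgtggtgt
Psmc6, 1 site in 1004 bases: caatcaaaagTTGTATAaggaaattgt
Psmd10, 1 site in 873 bases: caggaggaagTTGTATAttttagagga
Psmd5, first of 2 sites in 2842 bases: attatattatTTGTATAtaaggaataa
Psmd5, the other site: cagggcttctCTTGTATccctgagttc

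None of the 42 genes held the 8-base site CTTGTATA in its longest annotated 3' UTR, against 3.83% of the 7884 genes at 20 CPM or more in a group. A site of 7 bases (CTTGTAT or TTGTATA) was present in 6 of the 42 genes (14.3%), the 5 above and Psmb11, against 26.5% of those genes. The 3' UTRs of the proteasome genes were short, with a median of 315 bases against 1190. Among 3' UTRs of 1000 bases or less the shares were 6.25% (2 of 32 genes) and 10.3% (357 of 3478 genes).

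Total counts ranged from 544866 to 3461022 per cell, and genes with a count from 3243 to 8983. In 8-cell mimic 3 cells stood apart, with 3243, 4614 and 4881 genes. The summed levels and the counts over all proteasome genes that use 8-cell mimic cells, and some single genes, are also given without them, an alternative chosen after the data were seen. Other values of 8-cell mimic, counts by role and by list among them, include them. Cells were sorted by Xist and by 4 Y-linked transcripts, at a limit of 20 CPM. Xist alone was found in 23 of 30 8-cell control and 11 of 24 8-cell mimic cells, and Y-linked transcripts above Xist in 7 cells of each. All 39 32-cell control cells had Y-linked transcripts above Xist, and all 39 32-cell mimic cells had Xist only. Mimic and control at the 32-cell stage therefore cannot be told apart from this difference.

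Defining genes of other cell types were checked as well. Of 6 cumulus or granulosa markers (Foxl2, Amhr2, Inha, Fshr, Star, Cyp11a1), Inha, Fshr and Cyp11a1 had 0 counts in every group. Their summed level per cell had a median of 82 CPM in 8-cell control, 33.3 in 8-cell mimic, 5.13 in 32-cell control and 0 in 32-cell mimic cells, and Amhr2 was the highest of them at the 8-cell stage. Blood markers (Ptprc, Hba-a1, Hba-a2, Hbb-bs, Hbb-bt, Lyz2) summed to at most 0.762 CPM in a group. The 7 oocyte transcripts (Zp1, Zp2, Zp3, Gdf9, Bmp15, Btg4, Oosp1) summed to 96.2 and 59.2 CPM in 8-cell control and mimic cells, and to 0.404 and 3.38 CPM at the 32-cell stage. The part of these transcripts in the results was not tested.

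The first question was how much of the transcriptome the proteasome genes made up in each group. Their summed level per cell, the lowest, median and highest, was 9199, 11835 and 13520 CPM in 8-cell control cells, and 17103, 20613 and 24303 CPM in 32-cell control cells. No control cell of one stage reached into the range of the other. In 8-cell mimic cells the sum ran from 10135 over a median of 12638 to 19285 CPM, and in 32-cell mimic cells from 16208 over 19134 to 25093 CPM. These ranges overlapped through 1 8-cell mimic cell, the one with 3243 genes, and without the 3 cells of few genes they did not overlap.

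**Figure D1:**
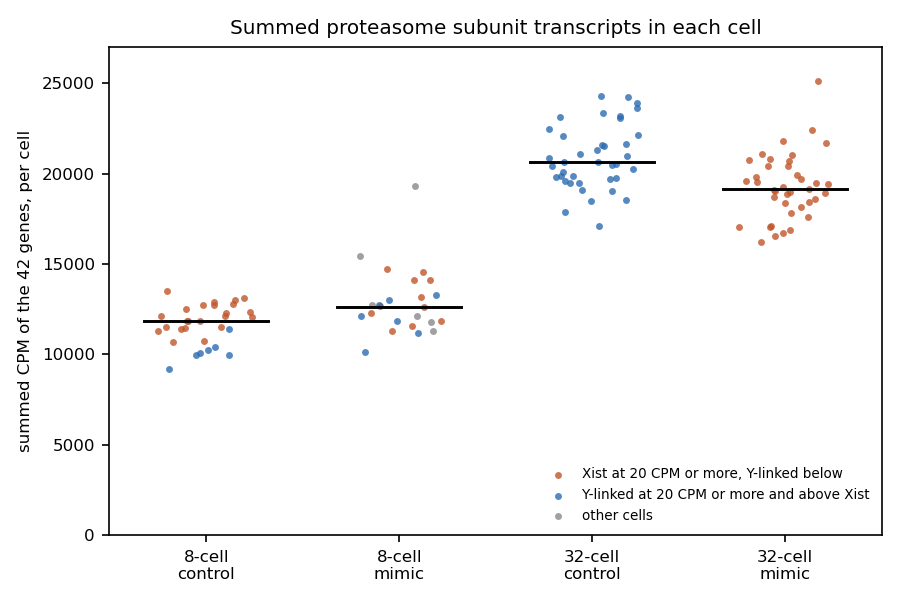
Summed CPM of the 42 proteasome genes (vertical axis) in each of 132 cells by group, with 1 point a cell, a bar at the group median, and colour for Xist and Y-linked transcripts. The 32-cell control cells (17103 to 24303 CPM) all lie above the 8-cell control cells (9199 to 13520 CPM), and 1 8-cell mimic cell at 19285 CPM lies among the 32-cell mimic cells.

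Pooled over the cells of a group, the sum was 11519 CPM in 8-cell control (95% Poisson interval 11484 to 11553) and 20799 CPM in 32-cell control cells (20762 to 20837), a ratio of 1.81. It was 13080 CPM in 8-cell mimic (13039 to 13120) and 19176 CPM in 32-cell mimic cells (19138 to 19213), a ratio of 1.47, or 1.52 without the cells of few genes. These intervals cover counting error only. CPM are shares of each cell's counts, so for these rises more copies of the transcripts and less of the other RNA cannot be told apart. Xist type moved with the sum within the 8-cell stage. In control the 23 cells with Xist only were at 12098 CPM and the 7 with Y-linked transcripts above Xist at 10142 CPM, with 20 of the 23 above the highest of the 7. In mimic the levels were 13049 and 12084 CPM, with 4 of 11 above the highest of 7. Cells of 1 type may come from few embryos. Among cells with Y-linked transcripts above Xist alone, the control ratio between stages was 2.05.

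Counts of genes were made at 1.5-fold, a difference of 0.58 in log2(CPM + 1), among genes that reached 20 CPM in at least 1 of the groups compared. From 8-cell to 32-cell control, 27 of 39 proteasome genes that passed this floor were higher and 0 were lower. Over all 7469 genes that passed, 39.9% were higher and 28.8% lower. Their median log2 difference was 0.84 and that of all genes 0.20, with 32 of 39 above the latter. The 31 core and cap subunits had 22 higher and a median of 0.81. For single genes the cells of the stages overlapped: no proteasome gene had every 32-cell control cell above every 8-cell control cell, a pattern that 0.455% of all genes showed.

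**Figure D2:**
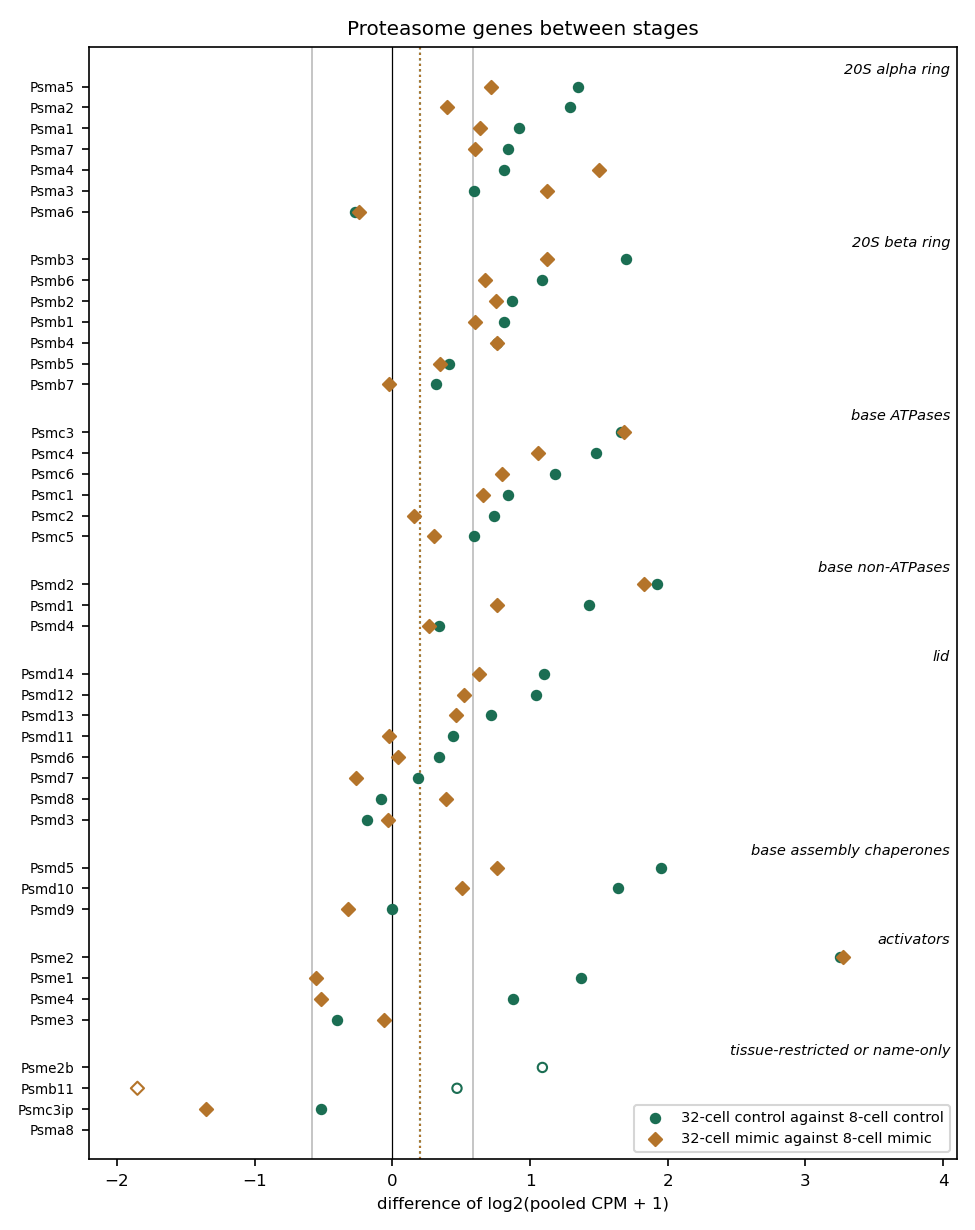
Differences of log2(pooled CPM + 1) between stages (horizontal axis) for each proteasome gene, by role, in control (circles) and mimic (diamonds). Filled symbols are genes that reached 20 CPM in a group, genes with 3 counts or fewer in a group are not drawn, grey lines mark 1.5-fold and the dotted lines, which coincide, the median of all genes. The base ATPases lie right of the dotted line in control, from 0.59 to 1.66, while lid genes spread around it, from -0.18 to 1.10.

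In the alpha ring, 6 of 7 genes were higher at the 32-cell than at the 8-cell stage in control, against 39.9% of all genes, and Psma6 was not. Of the 6 calls 3 ended under an alternative. Psma1 (0.52) and Psma2 (0.49) ended without the control cells of title numbers 1 to 30, which leaves 2 8-cell control cells. Psma3 (0.45) ended with TE-like 32-cell cells alone, the outer lineage described below. Pooled levels in 8-cell and 32-cell control cells were 465 and 881 CPM for Psma1, 302 and 739 CPM for Psma2, 302 and 456 CPM for Psma3, and 239 and 421 CPM for Psma4. They were 229 and 586 CPM for Psma5, with the largest difference of the ring (log2 1.35), and 586 and 1052 CPM for Psma7. Psma6 was at 589 CPM (95% interval 581 to 597) and 489 CPM (483 to 494), a log2 difference of -0.27. Its cells ran from 307 over a median of 617 to 1026 CPM at the 8-cell stage and from 78.5 over 527 to 865 CPM at the 32-cell stage. The stages overlapped almost fully for Psma6. In mimic cells Psma6 was at 599 and 507 CPM (log2 -0.24), and 5 of 7 alpha genes were higher, against 39.7% of all genes, led by Psma4 (136 and 386 CPM, a ratio of 2.84) and Psma3 (236 and 514 CPM, log2 1.12). The mimic calls of Psma1 (0.48) and Psma7 (0.44) ended with cells of the inner lineage (ICM-like) alone.

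In the beta ring, 5 of 7 genes were higher in both stage comparisons, against 39.9% and 39.7% of all genes. The call of Psmb2 in control ended without title numbers 1 to 30 (0.44), that of Psmb1 in mimic with TMM scaling (0.47) and that of Psmb6 in mimic without a run of 9 32-cell cells (0.53). Psmb3, a structural subunit, had the largest difference of the ring. Its cells ran from 53.4 over a median of 129 to 265 CPM in 8-cell control and from 243 over 426 to 723 CPM in 32-cell control, and 38 of the 39 later cells lay above every earlier one. Pooled levels were 131 and 429 CPM, a ratio of 3.27 (log2 1.70), and in mimic 195 and 427 CPM (log2 1.12). The other structural subunits Psmb1 (289 and 509 CPM in control), Psmb2 (406 and 744 CPM) and Psmb4 (305 and 516 CPM) had ratios of 1.69 to 1.83 in control. The 3 genes that carry protease activities did not move alike. Psmb6, with caspase-like activity, went from 455 to 969 CPM in control (log2 1.09) and from 606 to 964 CPM in mimic (0.67). Psmb5, with chymotrypsin-like activity, was at 97.6 and 130 CPM in control (0.41) and had a ratio of 1.28 between stages in mimic (0.35). Psmb7, with trypsin-like activity, was at 223 and 278 CPM in control (0.32) and 304 and 300 CPM in mimic (-0.02).

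All 6 base ATPases were past 1.5-fold higher in control, and 4 of 6 in mimic, against 39.9% and 39.7% of all genes. In control the calls of Psmc2 (0.48, without title numbers 1 to 30) and Psmc5 (0.44, with TE-like cells alone) ended under an alternative, and in mimic that of Psmc1 (0.53, with TMM scaling). Psmc3 had the largest difference in both. Its cells ran from 32.1 over a median of 262 to 463 CPM in 8-cell control and from 379 over 714 to 1219 CPM in 32-cell control, so that 37 of 39 later cells lay above every earlier one. Pooled levels were 235 and 747 CPM (log2 1.66) in control and 221 and 707 CPM (1.68) in mimic. Psmc4 followed, at 272 and 760 CPM in control (1.48) and 301 and 630 CPM in mimic (1.06). In control, Psmc6 was at 403 and 913 CPM (1.18), Psmc1 at 575 and 1034 CPM (0.84), Psmc2 at 348 and 581 CPM (0.74) and Psmc5 at 481 and 724 CPM (0.59). The differences of Psmc5, and of Psma3 in the alpha ring, lay just past the limit. In mimic, Psmc6 (495 and 863 CPM, 0.80) and Psmc1 (648 and 1023 CPM, 0.66) were past 1.5-fold, and Psmc2 (452 and 507 CPM, 0.16) and Psmc5 (525 and 648 CPM, 0.30) were not.

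In the cap, Psmd2, the base scaffold that docks ubiquitin receptors and Usp14, had the largest difference of the 31 core and cap genes in both treatments. Its cells ran from 8.82 over a median of 256 to 687 CPM in 8-cell control and from 509 over 1097 to 1886 CPM in 32-cell control, with 38 of 39 later cells above every earlier one. Pooled levels were 293 CPM (95% interval 288 to 299) and 1110 CPM (1101 to 1118), a ratio of 3.78 (log2 1.92). In mimic cells they were 282 and 1002 CPM, a ratio of 3.55. Psmd1, the other scaffold, was at 289 and 780 CPM in control (log2 1.43), and Psmd4, a ubiquitin receptor, at 651 and 827 CPM (0.34).

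Of the 8 lid genes 3 were past 1.5-fold higher in control, a share near the 39.9% of all genes. They were Psmd14 (362 and 779 CPM, log2 1.10), Psmd12 (380 and 779 CPM, 1.04) and Psmd13 (229 and 377 CPM, 0.72). In mimic 1 of the 8, Psmd14 (430 and 667 CPM, 0.63), was higher, against 39.7% of all genes. The call of Psmd13 ended without the 24 32-cell control cells of 1 run (0.39), and that of Psmd14 in mimic with ICM-like cells alone (0.38). The summed lid level was 2925 and 4183 CPM in control, a ratio of 1.43, where that of the ATPases was 2.06 and that of the base scaffold and receptor genes 2.20. Psmd3 and Psmd8 had the lowest differences of the lid in control. Psmd3 was at 192 CPM in 8-cell control and at 0.884 of that level in 32-cell control (log2 -0.18), and at 228 and 223 CPM in mimic (-0.03), and its cells ran from 24.2 to 419 CPM in 8-cell and from 32.3 to 333 CPM in 32-cell control. Psmd8 was at 409 and 388 CPM in control (-0.08) and 384 and 503 CPM in mimic (0.39).

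**Figure D3:**
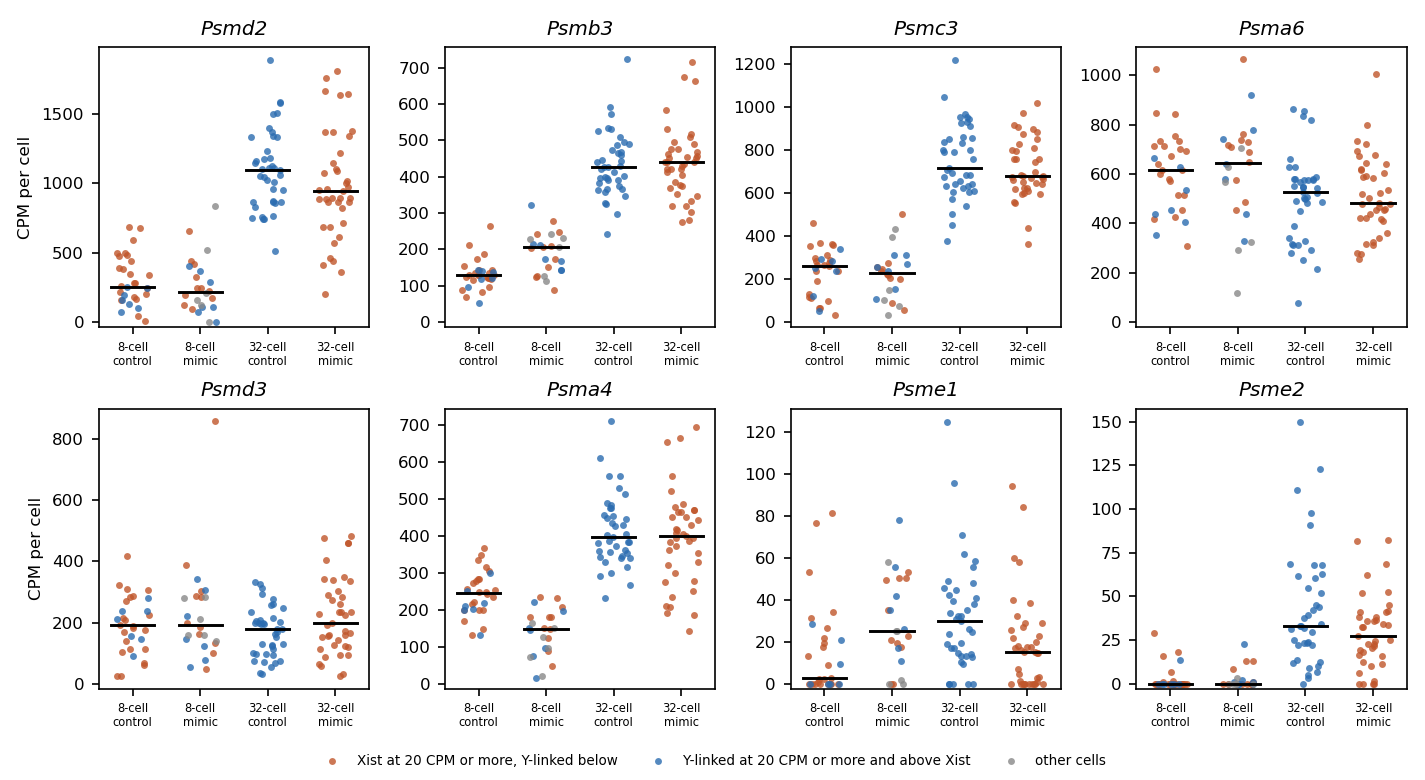
CPM in each cell (vertical axes, starting at 0) for 8 proteasome genes by group, 1 point a cell, with a bar at the group median and colour for Xist and Y-linked transcripts. In control 38, 38 and 37 of 39 32-cell cells lie above every 8-cell cell for Psmd2, Psmb3 and Psmc3, against 28, 34 and 37 in mimic, Psma6 and Psmd3 overlap between stages, and Psme1 and Psme2 have many cells at or near 0.

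The base chaperones were uneven between cells. Psmd5 went from 124 CPM (95% interval 120 to 128), with 27 of 30 cells above 0, to 482 CPM (476 to 487) in control, a ratio of 3.89 (log2 1.95). In mimic it was at 247 and 419 CPM (0.76). Psmd10, also called gankyrin, was at 24.8 and 79.3 CPM in control (1.64) and at 64.5 and 92 CPM in mimic (0.51). Without 28 of the 30 8-cell control cells, those with title numbers 1 to 30, the control difference of Psmd10 was 0.41, and among cells with Y-linked transcripts above Xist it was 3.38. Psmd9 was at 69.4 and 69.3 CPM in control.

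Among the activators, Psme2 had the largest difference of the 39 genes that passed the floor. Its cells ran from 0 over a median of 0 to 29 CPM in 8-cell control, with a count in 7 of 30 cells, and from 0 over 33.1 to 150 CPM in 32-cell control, with a count in 38 of 39. Pooled levels were 3.59 CPM (95% interval 3.01 to 4.26) and 42.7 CPM (41 to 44.4), a ratio of 11.9 (log2 3.25), and in mimic 2.23 and 30.1 CPM, a ratio of 13.5 (log2 3.27). The log2 difference was 2.10 in control without title numbers 1 to 30 and 2.28 in mimic with a pseudocount of 5. Psme2 passed the floor through the 32-cell groups alone. Its partner Psme1 lies near it on chromosome 14 (55578123 to 55581529, with Psme2 at 55587441 to 55591113). Psme1 was at 12.5 and 33.8 CPM in control (1.37, from 1.03 by the mean CPM per cell to 3.85 without title numbers 1 to 30) and at 28.8 and 19.3 CPM in mimic (-0.55). Psme4 was at 80.8 and 150 CPM in control (0.88, but 0.48 by the mean of log2 values per cell), and in mimic at 207 CPM and 0.695 of that level (-0.52). Psme3 was at 67.2 and 50.6 CPM in control (-0.40) and 42.1 and 40.5 CPM in mimic (-0.06).

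The remaining symbols of the rule were low or absent. Psma8, an alpha subunit of the testis, had 0 counts in all 54 8-cell cells, which allows up to 0.0817 CPM in control and 0.0971 CPM in mimic, and was at 2.81 and 4.51 CPM in 32-cell control and mimic cells, from 2 and 4 cells. Psmb11, a beta subunit of thymus epithelium, was at 3.43 CPM or less in every group, from at most 3 cells. Psme2b, a near copy of Psme2 whose reads may be shared with it, was at 1.35 CPM or less. Psmc3ip, a meiotic recombination factor and not a subunit, was at 41.5 and 28.7 CPM in control (-0.52) and at 95.7 and 37.1 CPM in mimic (-1.35, but -0.56 by the mean of log2 values per cell), the 1 gene of 39 past 1.5-fold lower in a stage comparison. Of the 2958 counts of Psmc3ip in 8-cell mimic cells, 41.1% came from 1 cell.

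From 8-cell to 32-cell mimic, 19 of 39 proteasome genes were past 1.5-fold higher and 1 was lower, against 39.7% and 28.5% of 7594 genes. Their median log2 difference was 0.52, again against 0.20 for all genes. Again 0 of 39 genes had every 32-cell cell above every 8-cell cell, against 0.224% of all genes. All 19 were among the 27 of control, which is 100% of the one list and 70.4% of the other, and 31 of 39 genes had the larger difference in control. Over all genes, the lists of higher genes shared 70.7% of the mimic and 71.4% of the control list, and 50.5% of 6982 genes had the larger difference in control. The 8 found in control alone were Psma2, Psmc2, Psmc5, Psmd10, Psmd12, Psmd13, Psme1 and Psme4. The difference between the treatments was not tested. It cannot be told apart from Xist type, which differed between 32-cell control and 32-cell mimic cells. Without the 3 cells of few genes the counts in mimic were 22 higher and 2 lower with a median of 0.63, against 39.5% and 28.9% of all genes with a median of 0.20. Among cells with Xist only they were 20 and 1 with 0.60, against 38.6% and 29.5% with 0.17. At 2-fold, over all mimic cells, 7 of 39 proteasome genes were higher, a smaller share than the 29.1% of all genes.

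Mimic and control cells of the 8-cell stage were compared to ask whether the mimic had moved these genes before lineages separated. Of 38 proteasome genes 6 were past 1.5-fold higher and 2 lower, where 16.7% and 15.0% of 6570 genes were. The share of higher genes, 15.8%, was near that of all genes. The median log2 difference was 0.17, against 0.03 for all genes, and 28 of 38 lay above 0. Within the 31 core and cap genes, only Psma2 was past 1.5-fold higher and only Psma4 lower. The summed level per cell overlapped widely, with 6 of 24 mimic cells above every control cell, and 4 of 21 without the cells of few genes.

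Psma4 is the gene shown above with a site in a 3' UTR of 241 bases. Its cells ran from 132 over a median of 245 to 369 CPM in 8-cell control and from 14.4 over 150 to 234 CPM in 8-cell mimic. The groups overlapped, with pooled levels of 239 CPM (95% interval 234 to 244) and 136 CPM (132 to 140), a log2 difference of -0.81. It was -0.72 without the cells of few genes and -0.22 against the 2 control cells outside title numbers 1 to 30. At the 32-cell stage the difference was -0.12 (421 and 386 CPM). At that stage Psma2 was at -0.25, Psmd5 at -0.20, Psmc6 at -0.08 and Psmd10 at 0.21. At the 8-cell stage Psma2 was higher (302 and 472 CPM, 0.65, but -0.15 against those 2 control cells), as were Psmd5 (124 and 247 CPM, 0.99, but 0.39 among cells with Y-linked transcripts above Xist) and Psmd10 (24.8 and 64.5 CPM, 1.34), while Psmc6 was at 403 and 495 CPM (0.30).

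**Figure D4:**
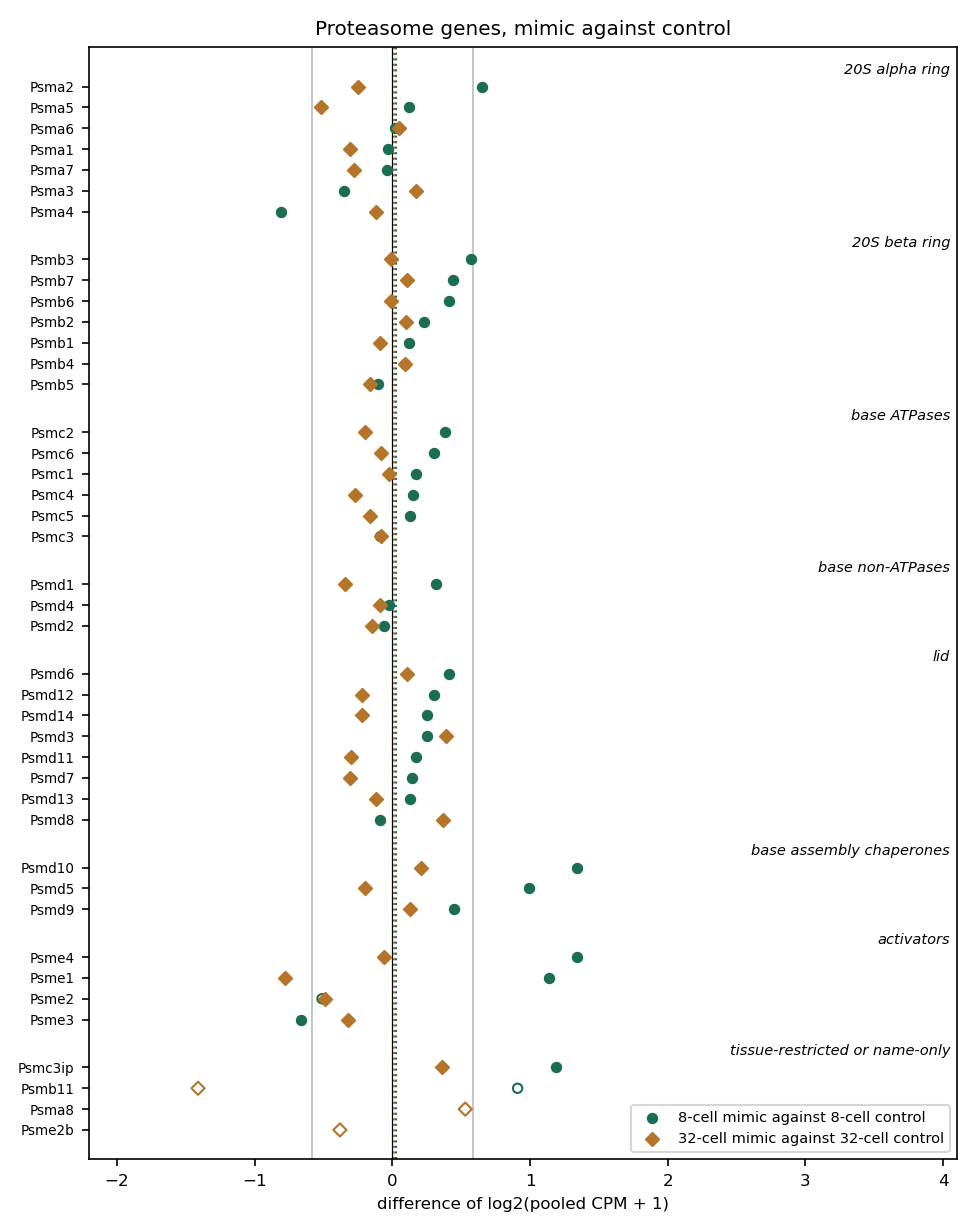
Differences of log2(pooled CPM + 1) between mimic and control (horizontal axis) for each proteasome gene, by role, at the 8-cell stage (circles) and the 32-cell stage (diamonds). Filled symbols are genes that reached 20 CPM in a group, genes with 3 counts or fewer in a group are not drawn, and grey lines mark 1.5-fold. Core and cap genes lie mostly between the grey lines, and Psme4 and Psmd10 (both 1.34) lie farthest right.

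The genes farthest up at the 8-cell stage were Psme4, Psmd10 and Psmc3ip. Psme4 ran from 0 over a median of 76.2 to 327 CPM in control and from 28.3 over 219 to 540 CPM in mimic cells, with pooled levels of 80.8 CPM (95% interval 78 to 83.8) and 207 CPM (202 to 212), a log2 difference of 1.34. It was 2.5 among cells with Y-linked transcripts above Xist and 0.98 against the 2 control cells outside title numbers 1 to 30. Psmd10 ran from 0 over 22.3 to 86.1 CPM in control and from 0 over 27.4 to 533 CPM in mimic, where 32% of its counts came from 1 cell. Both medians of Psmd10 were low and close. The log2 difference of Psmd10 was -0.74 among cells with Y-linked transcripts above Xist and 0.12 against the 2 control cells outside title numbers 1 to 30. Psmc3ip followed with 1.19, which was 0.62 without the cells of few genes and 0.49 among cells with Xist only. Psme1 was at 12.5 CPM in control, with a count in 18 of 30 cells, and at 28.8 CPM in mimic, with a count in 20 of 24 (1.14, and 3.62 against the 2 control cells outside title numbers 1 to 30). On the other side, after Psma4, came Psme3 (67.2 and 42.1 CPM, -0.66) and Psma3 (302 and 236 CPM, -0.35), while Psmb3 lay just inside the limit at 0.57 (131 and 195 CPM). Without the cells of few genes 8 of 38 were higher and 2 lower, against 16.8% and 14.3% of all genes, with Psmb3 and Psmd9 both at 0.60, and Psme3 was at -0.98, but Psme3 was at -0.26 among cells with Y-linked transcripts above Xist and at -1.68 among cells with Xist only.

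At the 32-cell stage the question was the same, within the limit that mimic and control cells differ in Xist type. Of 39 proteasome genes 0 were past 1.5-fold higher and 1, Psme1, was lower (33.8 and 19.3 CPM, log2 -0.78), where 16.3% and 14.7% of 7307 genes were. The median log2 difference was -0.12 against 0.01 for all genes, and 28 of 39 genes lay below 0. The call of Psme1 ended without the run of 9 32-cell mimic cells with the highest title numbers (-0.53). After Psme1 the lowest were Psma5 (586 and 410 CPM, -0.52) and Psme2 (42.7 and 30.1 CPM, -0.49), and the highest Psmd3 (223 CPM in mimic, 0.39), Psmd8 (388 and 503 CPM, 0.37) and Psmc3ip (28.7 and 37.1 CPM, 0.36). By the sum per cell, 1 of 39 mimic cells lay above every control cell and 6 lay below every control cell. Beta ring genes were nearly level, with summed CPM of 3575 in control and 3634 in mimic, while the alpha ring was at 4623 and 4014 CPM.

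Cells of the 32-cell stage were also split by lineage, because the inner cell mass (ICM) and the trophectoderm (TE) form at that time. Clusters were made from every other gene of the table in alphabetical order, without proteasome, pathway and marker genes, but with Xist and Y-linked genes. They held 35 cells with 8 of 9 ICM markers higher and 43 cells with 9 of 9 TE markers higher, here called ICM-like and TE-like. ICM-like cells were 25 of 39 in control (64.1%, exact binomial 95% interval 47.2 to 78.8) and 10 of 39 in mimic (25.6%, 13 to 42.1). The intervals cover counting of cells only, cells of 1 embryo are not independent, and the difference between the groups was not tested. In mimic the share was 38.5% when all genes placed the cells and 43.6% when marker scores did. Summed CPM of the proteasome genes were 21721 in ICM-like and 19566 in TE-like control cells, and 19055 and 19214 in mimic. The ranges of cells overlapped in both treatments, at 19056 to 24243 and 17103 to 24303 CPM in control. In log2, ICM-like cells exceeded TE-like cells by a median of 0.16 (control) and 0.02 (mimic) over the proteasome genes, against 0.07 and 0.02 over all genes, and at most 1 proteasome gene was past 1.5-fold in either (Psmd9 higher in control, Psmd10 lower in mimic), where of all genes 23.1% were higher and 18.3% lower in control and 19% and 17.9% in mimic. Within ICM-like cells 1 gene was higher and 2 lower in mimic than in control, where 22% and 20.2% of all genes were, and within TE-like cells 2 were higher and 1 lower, against 23% and 17%. Psme1 was lower in both classes.

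Levels were compared between genes per kilobase of annotated exon. In 8-cell control cells the core and cap genes ran from 38.6 CPM per kilobase (Psmd3) to 477 (Psma6), and in 32-cell control cells from 34.1 (Psmd3) to 618 (Psmb2) with a median of 265. Of these 31 genes, 22 and 20 lay within 2-fold of the group's median. At the 32-cell stage the median of the core genes was 233 and that of the cap genes 275 by exon union, and 452 and 390 by the principal transcript, so the order turned with the length used. Psma6 was the highest gene in 8-cell control by exon union, and by the length of the principal transcript it was Psma7. In control Psmd3 was the lowest of the 31 at both stages by either length.

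Spread between cells was narrower for the sum than for its genes. In 32-cell control the coefficient of variation over cells was 8.58% for the summed level and had a median of 26.9% over single genes, and in 8-cell control the values were 9.42% and 38.4%. If the genes varied independently of each other, the sum would have varied by 4.66% and 6.42%. The same values in mimic were 9.41%, 32.9% and 5.49% at the 32-cell stage and 14.4%, 43.2% and 7.3% at the 8-cell stage, with the cells of few genes included. In all 4 groups the sum varied more than under independence. Cells of 1 group share embryos and differ in depth, so these values are a description.

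Promoters were read as windows of 300 bases, from 250 before to 50 after the start, which RefSeq (GRCm38.p6) gave for 35 of the 42 genes. The motifs searched on both strands were CCGGAAG (an ETS core), CCAAT (the NF-Y box), TGACNNNGC (the core of the antioxidant response element) and TGACTCAGC, which also counts as the third. CCGGAAG was present in 34.3% of the 35 windows, in 9.12% of all 27025 windows and in 22.9% of the 6505 windows of genes at 20 CPM or more. CCAAT was in 40%, 37.9% and 40.1%, TGACNNNGC in 17.1%, 12.5% and 15.6%, and TGACTCAGC in 0%, 0.426% and 0.354%. Windows are shown for 3 genes, the core or cap gene with the largest stage difference, the beta gene with the largest, and the alpha gene that was not higher, with the matches in capitals.
Psmd2 (chr16:20651402-20651701, plus strand), 1 CCGGAAG read as CTTCCGG: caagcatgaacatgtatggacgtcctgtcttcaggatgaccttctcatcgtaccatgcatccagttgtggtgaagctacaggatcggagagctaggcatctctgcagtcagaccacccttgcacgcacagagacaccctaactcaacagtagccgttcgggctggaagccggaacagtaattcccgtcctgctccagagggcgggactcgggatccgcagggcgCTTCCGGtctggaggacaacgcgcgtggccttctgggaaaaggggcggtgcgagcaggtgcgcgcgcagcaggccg
Psmb3 (chr11:97703184-97703483, plus strand), 2 CCAAT: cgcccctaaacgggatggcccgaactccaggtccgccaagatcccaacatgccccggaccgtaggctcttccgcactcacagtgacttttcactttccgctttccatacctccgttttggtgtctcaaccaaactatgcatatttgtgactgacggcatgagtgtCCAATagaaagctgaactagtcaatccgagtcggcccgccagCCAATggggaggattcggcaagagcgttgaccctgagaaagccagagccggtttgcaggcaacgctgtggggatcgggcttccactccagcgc
Psma6 (chr12:55383972-55384271, plus strand), 2 CCAAT, 1 read as ATTGG: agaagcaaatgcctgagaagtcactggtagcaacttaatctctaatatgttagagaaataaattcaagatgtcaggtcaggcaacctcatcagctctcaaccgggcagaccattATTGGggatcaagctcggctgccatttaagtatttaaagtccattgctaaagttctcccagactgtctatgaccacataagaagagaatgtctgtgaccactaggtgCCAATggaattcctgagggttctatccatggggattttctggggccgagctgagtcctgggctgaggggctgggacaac

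Genes that act with the proteasome were counted by list. The immunoproteasome subunits, which replace the protease subunits after interferon, were low. Psmb8 had 0 counts in all 132 cells, which allows up to 0.0971 CPM in a group. Psmb9 had 0 counts at the 8-cell stage and was at 5.03 CPM in 32-cell control and 10.6 CPM in mimic cells, with a count in 11 and 18 of 39 cells, and 5.79% of its exon bases are shared with Tap1. Psmb10 was at 15.9 and 6.94 CPM in control and at 18.8 and 5.16 CPM in mimic. None of the 3 passed 20 CPM.

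The lists are small, and the shares of all genes past 1.5-fold, 39.9% higher and 28.8% lower between control stages, stand beside each count. Between the control stages 2 of 4 core assembly chaperones above the floor were higher and 0 lower, with Psmg1 at 49 CPM in 8-cell cells and 2.16 times that in 32-cell cells (log2 1.10) and Psmg3 as the smallest difference (0.23). Neither of the cap subunits without a Psm name, Adrm1 (332 and 270 CPM, -0.30) and Sem1 (125 and 129 CPM, 0.05), was past 1.5-fold. Of 6 bound enzymes and regulators 4 were higher and 1 lower, from Psmf1, an inhibitor of the core (31.1 and 77.1 CPM, 1.28), to Zfand5 (131 and 58.9 CPM, -1.14). The genes of transcriptional control went both ways. Nfe2l2, a transcription factor of the oxidative stress response, was at 30.6 and 142 CPM (2.18), while Ddi2 (128 and 54.2 CPM, -1.23), the protease that activates Nfe2l1, and Nfe2l1 itself (89.3 and 45.3 CPM, -0.96), known for restoring proteasome genes after inhibition, were lower. Of the exon bases of Ddi2, 18.3% are shared with Rsc1a1, so its values are uncertain to that extent. In all, 3 of the 6 genes of transcriptional control were higher and 3 lower.

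Genes of ubiquitin and its activating enzymes were looked at as well. Ubb, a polyubiquitin gene, ran from 208 to 569 CPM over 8-cell control and from 780 to 1837 CPM over 32-cell control cells. The cells did not overlap, a pattern that 0.455% of all genes showed, and pooled levels were 409 and 1168 CPM (1.51). Ubb was also higher in mimic (353 and 1048 CPM, 1.57), where the cells overlapped (37 of 39 later cells above every earlier one). Uba6 was lower in control (51.6 and 26.8 CPM, -0.92). Ubb and Uba6 had the largest rise and the largest fall of this list in control. The median log2 difference of its 6 genes there was -0.26, against 0.20 for all genes.

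In the mimic stage comparison the same lists gave 2 of 4 higher for core assembly, 3 higher and 1 lower of 6 for bound enzymes, 3 and 2 of 6 for transcriptional control, and 0 higher and 1 lower of 2 for the cap subunits, Adrm1, where 39.7% and 28.5% of all genes were. Nfe2l2 was again the largest, at 7.6 CPM and 18.3 times that (4.03), with a count in 5 of 24 8-cell mimic cells and 65.1% of those counts in 1 cell. Between mimic and control at the 8-cell stage Nfe2l2 was lower (30.6 and 7.6 CPM, -1.88), and at the 32-cell stage the log2 difference was -0.03.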

How the data were processed

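Expected counts per gene and cell from RSEM (1.3.0) on STAR (2.5.1b) alignments to mm10 (GRCm38) were deposited by the authors as whole numbers, according to the submitters' processing notes. Smart-seq2 reads carry no molecular identifiers and were counted without strand. The study's filter of at least 3000 genes and under 10% mitochondrial counts removed 0 of the 132 cells. Groups followed the labels. Counts without 13 mitochondrial genes were summed over the cells of a group and scaled to CPM, with exact 95% Poisson intervals, which cover counting error only, since reads are not independent molecules. Differences are of log2(CPM + 1), counted past 1.5-fold among genes that reached 20 CPM in 1 of the groups compared. With 1 sample per group no test was made.

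The members and gene lists were chosen with earlier results of these data known. Named are the core subunits and ATPases, the 3 members farthest up and down in each comparison, Psme1 to Psme4, tissue-restricted members, and the ends of each pathway list; other members were named after their values were seen. Cells were clustered in Seurat 5.3.0 (2000 variable genes, 25 principal components) under R 4.3.3, and doublets were not called. Python 3.11.15, pandas 2.3.3, numpy 2.4.6, scipy 1.17.1 and matplotlib 3.10.9 gave the rest, with TMM factors from edgeR 4.0.16. The code was tested on simulated data. Gene models were from GENCODE (GRCm38). Alternatives covered scaling, pooling, pseudocount, floor, fold, thinning to 500000 counts, runs of title numbers, Xist type, lineage class and gene length. Some genes of the pathway lists are not reported here.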

Additional observations from a re-analysis of the deposited data

Results flagged for a closer look

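Psme1, a subunit of the interferon-inducible activator, was past 1.5-fold in opposite directions in mimic against control at the stages. The log2 difference was 1.14 at the 8-cell stage (12.5 CPM in control and 28.8 CPM in mimic) and -0.78 at the 32-cell stage (33.8 and 19.3 CPM). Without the run of 9 32-cell mimic cells with the highest title numbers the latter was -0.53, inside 1.5-fold. Psme1 passed the 20 CPM floor at each stage through its higher group alone. The 8-cell difference ranged from 0.90 by the mean CPM per cell to 3.62 without the control cells of title numbers 1 to 30. The difference between the stages was not tested, since each group is 1 sample. The cells overlapped at both stages, from 0 to 81.2 CPM in 8-cell control and from 0 to 78.3 CPM in 8-cell mimic. At the 32-cell stage, mimic and control cannot be told apart from Xist type.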

How the results depend on the processing

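No paired analysis was possible because no label ties a cell of one group to a cell of another. The median log2 differences of the proteasome genes kept their sign in all alternatives, at 0.70 to 1.0 and 0.39 to 0.67 for the stage comparison in control and mimic, 0.13 to 0.20 for mimic against control at the 8-cell stage, and -0.23 to -0.06 at the 32-cell stage. TMM factors moved the median of all genes from 0.20 to 0.04 in the mimic stage comparison and from 0.01 to -0.11 at the 32-cell stage, with the proteasome genes at 0.39 and -0.23. At 2-fold, 15 of 39 genes were higher between stages in control and 7 of 39 in mimic, against 30% and 29.1% of all genes, and 0 were lower in mimic than in control at either stage. The number lower between control stages was 1 by mean CPM per cell, thinning or ICM-like cells, 2 by mean log2 per cell, and 0 to 1 without a run of title numbers. In mimic it was 2 with no floor, by mean log2, by the unweighted class mean or without the cells of few genes (added after the data were seen), 3 by TMM or ICM-like cells, 0 for core and cap genes, and 2 to 2 without a run. For mimic against control at the 8-cell stage, 1 core or cap gene was higher and 1 lower, the number lower was 1 among cells with Y-linked transcripts above Xist, and 0 to 2 without a run. There Psma2 ranged from -0.15 (without title numbers 1 to 30) to 0.74 without a run, and Psmd10 turned to -0.74 among cells with Y-linked transcripts above Xist. At the 32-cell stage the number higher was 1 by mean log2 or ICM-like cells, 2 in TE-like cells and 0 to 1 without a run, and the number lower was 2 with no floor, thinning or ICM-like cells, 3 by mean log2 or TMM, 0 for core and cap genes, and 0 to 2 without a run. The causes were not tested. Proteasome genes past 1.5-fold in every alternative were 18 of 27 and 13 of 20 between stages in control and mimic, 2 of 8 at the 8-cell stage and 0 of 1 at the 32-cell stage. The same counts were not made over all genes. In 8-cell control the highest over the lowest level per kilobase of the 31 core and cap genes was 12.4, and 7.19 by the principal transcript, also added later.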
